A study of Caenorhabditis elegans with 23 samples.

Results

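The meiotic axis and synaptonemal complex genes of Caenorhabditis elegans were followed across 23 PAT-seq libraries in 10 groups. PAT-seq sequences the 3′ ends of mRNAs into the poly(A) tail, so each gene has a read count, a share of reads that carry a tail, and a mean tail length in nucleotides (nt). The set was chosen by name and held 10 genes: him-3, htp-1, htp-2, htp-3, rec-8, syp-1, syp-2, syp-3, syp-4 and spo-11. Of these, 8 had a row of their own among 31753 gene rows, 19998 of which had any count. The remaining 2, htp-3 and syp-1, lay only in rows that merge overlapping genes under 94 and 149 names, so no value is given for them. Whole worms at the young adult stage made up run 1, in 3 libraries per strain: N2, the wild type, gld-2(q497), and YM19, which carries cpb-3(bt17). Run 2 used gld-2(q497) young adults, again as whole worms, on bacteria expressing either a control dsRNA without a target (pcb19) or dsRNA for one of 5 genes. These 5 groups are labelled ccf-1, ccr-4, parn-1, panl-2 and caf-1 RNAi, and each RNAi group has 2 libraries. All 12 RNAi libraries, the control included, therefore carry the gld-2 mutation, although a protocol text names N2 for the RNAi worms. Run 2 also held N2 embryos at the 1- and 2-cell stage, with 2 libraries. Whether the replicates are separate cultures is not stated, so p-values cover only the spread among these libraries, which may be technical.

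In meiotic prophase each chromosome is organised along a protein axis, and homologous chromosomes are joined along their axes by the synaptonemal complex. In C. elegans the axis holds cohesin with the meiotic subunit REC-8 and the HORMA-domain proteins HTP-3, HIM-3, HTP-1 and HTP-2. The SYP proteins form the central region between paired axes, and SPO-11 is the topoisomerase-like enzyme that cuts DNA to start recombination. These mRNAs are made in the germline, where tails are lengthened in the cytoplasm by the poly(A) polymerase GLD-2 and shortened by deadenylases, among them PARN-1, PANL-2, CCF-1 and CCR-4. CPB-3 is a germline protein of the CPEB family, which binds mRNAs and acts on their translation and tails.

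Positions are those of the deposited tables in the ce10 build. Of the axis genes, htp-1 spans IV:5390351-5391549 on the minus strand, htp-2 IV:6419518-6420716 on the plus strand, him-3 IV:6977515-6978525 on the plus strand, and rec-8 IV:13349217-13353169 on the minus strand with 3 transcripts. Of the synaptonemal complex genes, syp-4 spans I:6847593-6849779 on the plus strand, syp-3 I:8663228-8664108 on the minus strand, and syp-2 V:5536753-5537533 on the plus strand. The gene spo-11 spans IV:11123138-11124714 on the minus strand. A merged row of the other strand overlaps syp-4. The rows of htp-1 and htp-2 both span 1199 bases, and these near-identical copies may have shared reads in the counting, so each of the 2 values is uncertain.

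Libraries held between 2.2 M and 15.95 M counts (M, 1000000), and 3.8% to 34.8% of them fell on 3 ribosomal RNA rows. The smallest library was control RNAi replicate 2, and cpb-3 replicate 3 had the highest ribosomal share. The gld-2 gene had 11.3 to 12.6 CPM (counts per M counts of a library) in N2 and 2.84 to 4.65 in gld-2 worms (edgeR adjusted p = 0.00012). The cpb-3 gene had 51.6 to 57.4 CPM in N2 and 26.1 to 34.4 in cpb-3 worms (adjusted p = 0.00656), and 25.2 to 31.1 in gld-2 worms (adjusted p = 0.000667). Of the RNAi targets, caf-1 has no row of its own, ccf-1 had 65.6 to 72.1 CPM in its own RNAi libraries against 73 to 91.3 in control (adjusted p = 0.918), and parn-1, panl-2 and ccr-4 had more reads than in control. These reads show no knock-down, and the RNAi groups are named by their labels.

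All 8 genes were detected in every library, adults and embryos alike, with between 8 and 954 reads and between 2.16 and 72.7 CPM. In N2 adults the axis genes him-3, htp-1, htp-2 and rec-8 had 34 ± 4.3, 36.6 ± 2.08, 9.52 ± 1.61 and 27.3 ± 0.822 CPM (SD, n = 3). The synaptonemal complex genes syp-2, syp-3 and syp-4 had 11.1 ± 1.94, 12.3 ± 1.42 and 52.1 ± 3.95 CPM, and spo-11 had 9.09 ± 2.91. Among the N2 libraries the widest relative spread was in spo-11 (6.78 to 12.4 CPM). The members' N2 tails had group means between 30.35 ± 2.03 nt for rec-8 and 41.2 ± 2.03 nt for spo-11 (SD, n = 3). In between lay syp-2 with 30.8 ± 2.12, syp-3 with 34.5 ± 0.864, htp-1 with 35.4 ± 2.82, htp-2 with 38.4 ± 0.805, syp-4 with 38.8 ± 1.59 and him-3 with 39.3 ± 2.5 nt. Neighbours in this order differed by less than the larger of their SDs, except for the steps from syp-2 to syp-3 and from htp-1 to htp-2. The longest tail among the members was that of him-3 in 16 of the 23 libraries.

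**Figure D1:**
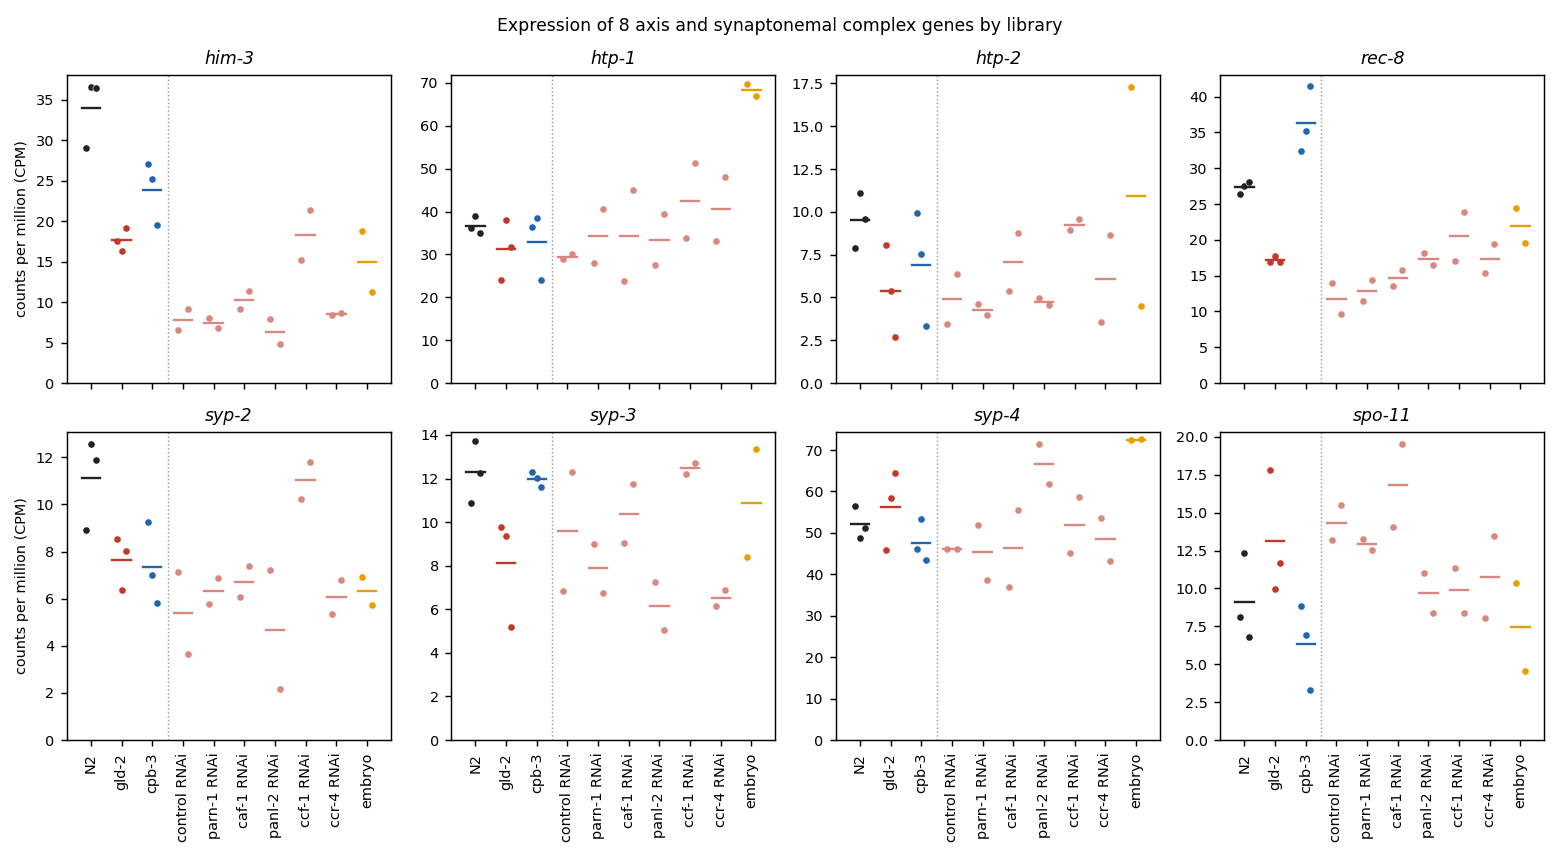
Expression in CPM (vertical axes, each from 0) of the 8 genes in every library, by group (horizontal axis). Points are libraries, short lines are group means, and the dotted line separates run 1 from run 2. In run 1, him-3 and rec-8 points of gld-2 worms lie below all N2 points, at 16.4 to 19.2 and 16.9 to 17.7 CPM.

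In gld-2 adults the mRNAs of him-3 and rec-8 were lower than in N2, and the other 6 members did not pass the test in expression. Axis and synaptonemal complex genes were not tested against each other. Among the members, the tail of spo-11 was the one that passed the test, and it was shorter. The axis protein gene him-3 had 17.6, 16.4 and 19.2 CPM in the gld-2 libraries against 29.1, 36.6 and 36.5 in N2. All 3 gld-2 values lay below all N2 values, and the fitted log2 change was -0.93 ± 0.19 (SE; edgeR adjusted p = 0.00116). The cohesin gene rec-8 had 16.9, 17.7 and 16.9 CPM against 26.4, 27.5 and 28, again without overlap, as in 47% of all rows tested. Its log2 change was -0.65 ± 0.18 (edgeR adjusted p = 0.0112), and without N2 replicate 3 the adjusted p was 0.0513. Leaving out any 1 library kept the him-3 change between -1.03 and -0.87, with adjusted p from 0.00205 to 0.0109. In whole worms, fewer cells in meiotic prophase, other shifts in the mix of cells and less mRNA per cell cannot be told apart. In all, 2 of 8 members were called, both lower, against 28.5% of all 10357 rows tested in either direction (1400 higher and 1548 lower). The median log2 change was -0.54 over the 8 members and -0.00 over all rows.

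The other 6 genes did not pass the test in gld-2 worms. The HORMA-domain copies htp-1 and htp-2 had log2 changes of -0.21 ± 0.20 and -0.74 ± 0.35 (edgeR adjusted p = 0.5 and 0.129), and -0.31 ± 0.20 when their reads were summed (adjusted p = 0.273). The htp-2 row alone was called without gld-2 replicate 1 (-1.12, adjusted p = 0.037) and with no filter on low counts (-0.76, adjusted p = 0.0355). Of the central region genes, syp-2 had -0.53 ± 0.24 (adjusted p = 0.115) and syp-3 -0.55 ± 0.24 (adjusted p = 0.104), close to the rec-8 value. In both the libraries did not overlap, as in 47% of all rows tested. The gene syp-4 had 0.13 ± 0.17 (adjusted p = 0.637). The break-forming gene spo-11 was the other with a positive change, 0.57 ± 0.31 (adjusted p = 0.192), with 17.8, 9.98 and 11.7 CPM against 8.11, 12.4 and 6.78.

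The germline of these worms differed in its markers. Summed over 11 sperm marker rows, N2 had 29.1 to 41.9 CPM and gld-2 worms 1440 to 1580, and all 10 markers tested were higher. Summed oocyte markers were at 5380 to 5450 CPM in N2 and 2130 to 2720 in gld-2 worms, with 10 of 12 lower. Markers of mitotic germ cells were at 386 to 453 against 142 to 160 CPM (2 of 5 lower), and those of all germ cells at 1480 to 1600 against 1140 to 1240 (1 higher and 3 lower of 10). Muscle markers overlapped, at 1790 to 2010 and 1620 to 2030 CPM. Summed over 9 marker rows of early zygotic expression, N2 adults had 12.3 to 15.3 CPM and gld-2 worms 1.26 to 1.43. All 3 of these tested were lower in gld-2 worms, and the 1- and 2-cell embryos had 2.96 to 7.86 CPM. The part of these shifts in the changes of him-3 and rec-8 was not tested.

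The spo-11 mRNA had the one called tail change among the members in gld-2 worms. Its tails measured 39.05, 43.1 and 41.5 nt in N2 and 27, 29.8 and 23.8 nt in gld-2, from 66 to 265 tailed reads per library. The groups did not overlap, as in 30.8% of all rows tested. The difference was -14.34 ± 2.36 nt (limma adjusted p = 0.00977). Only 0.833% of the rows tested had a more negative change. The call of 1 member in 8 compares with 8.86% of 7564 rows (14 longer and 656 shorter). These 670 calls fell to 172 when gld-2 replicate 1 was left out and to 218 when gld-2 replicate 2 was, and to 227, 418 and 202 without N2 replicates 1, 2 and 3. All rows tested had a median change of -2.18 nt, and spo-11 lay 12.2 nt below that median. The call was lost without gld-2 replicate 1 (adjusted p = 0.0503) and with lengths centred per library (-11.6 nt, adjusted p = 0.0626).

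The remaining 7 members had tail changes from -3.15 to 0.34 nt in gld-2 worms, close to the median over all rows, and none passed the test. For him-3 the tails were 39.5, 36.8 and 41.8 nt in N2 and 36.7, 36.9 and 42.7 nt in gld-2, so the groups overlapped (-0.57 ± 2.69 nt, limma adjusted p = 0.939). For rec-8 they were 28.8, 32.6 and 29.6 nt against 30.3, 27.6 and 30.4 nt, also overlapping (-0.90 ± 2.03 nt, adjusted p = 0.868). The 2 mRNAs with lower counts in gld-2 worms therefore had no called tail change, and the mRNA with the called tail change had no called change in counts. A missing call does not show that a measure was unchanged. Against cpb-3 worms spo-11 was called in both measures (log2 change 0.95 and -21.66 nt). In the share of tailed reads, 0 of 8 members were called in gld-2 against N2, as were 0.0% of 7793 rows (limma; 0 members and 231 rows at an unadjusted p under 0.05).

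**Figure D2:**
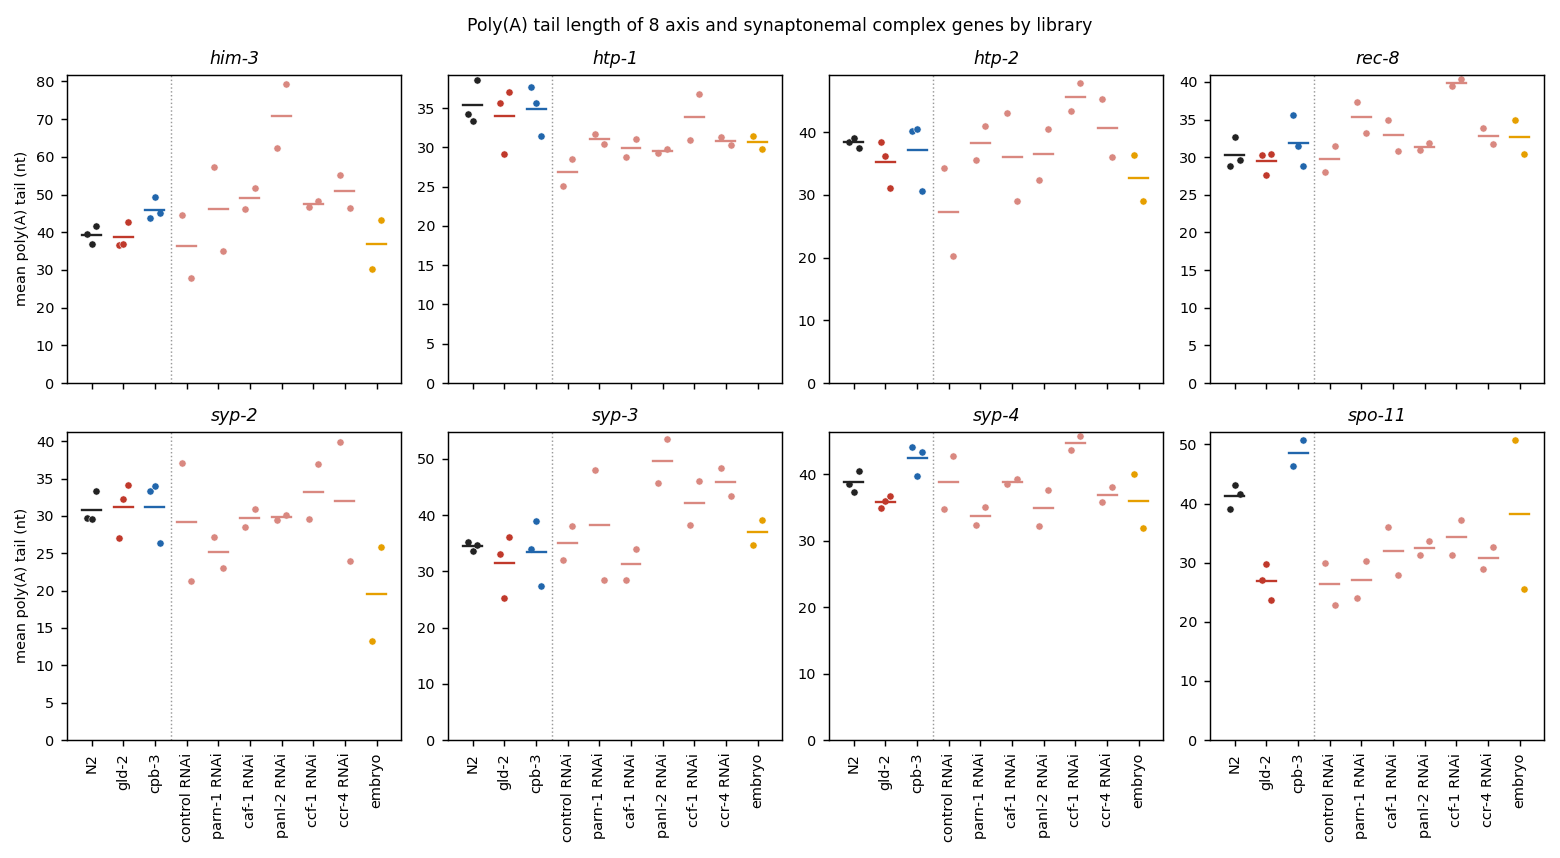
Mean poly(A) tail length in nt (vertical axes, each from 0) of the 8 genes by library and group. Points are libraries with at least 5 tailed reads, lines are group means, and the dotted line separates the runs. The spo-11 points of gld-2 worms, at 23.8 to 29.8 nt, lie below all N2 and cpb-3 points of run 1.

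In cpb-3 adults no member passed the test in any of the 3 measures, with the same N2 libraries as controls. In expression 0 of 8 were called, against 8.78% of 10357 rows (734 higher and 175 lower), a count of 909 that fell to 483 without N2 replicate 2 and 380 without N2 replicate 3. DESeq2 also called 0, and 3 members had an unadjusted p under 0.05 in edgeR. These were him-3, with 27, 25.2 and 19.5 CPM (log2 change -0.47 ± 0.19, edgeR adjusted p = 0.144), rec-8, with 32.5, 35.1 and 41.5 CPM (0.43 ± 0.18, adjusted p = 0.159), and syp-2, with 9.26, 7.02 and 5.81 CPM (-0.54 ± 0.25, adjusted p = 0.205). The him-3 values lay below all N2 values and the rec-8 values above all of them. Such non-overlap held for 2 of 8 members and for 29.5% of all rows tested. Sperm markers summed to 337 to 610 CPM in cpb-3 worms, with 9 of 10 tested higher than in N2, and oocyte markers to 6330 to 6930 CPM, with 1 of 12 higher.

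Tails in cpb-3 worms were called for 0 of 8 members and 0.0% of 7300 rows (limma; 2 members and 611 rows at an unadjusted p under 0.05). The 2 were spo-11, with 46.4 and 50.7 nt (7.32 ± 2.62 nt above N2, adjusted p = 0.56), and him-3, with 43.7, 49.2 and 45 nt (6.66 ± 2.65 nt, adjusted p = 0.567). Both lay above all their N2 values, and 16.7% of all rows tested likewise had no overlap. The third cpb-3 library had only 8 spo-11 reads, 4 of them tailed (50%, 95% Wilson interval 21.5% to 78.5%, counting error only), and its tail was left out of the fit. The share of tailed reads was called for 0 of 8 members and 0.0% of 7665 rows (limma; 1 member and 2294 rows unadjusted), and without cpb-3 replicate 1 for 1121 rows and 0 members. That member was syp-4, with 82.7 ± 1.28% in cpb-3 and 91.1 ± 0.707% in N2 (SD, n = 3; adjusted p = 0.161).

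**Figure D3:**
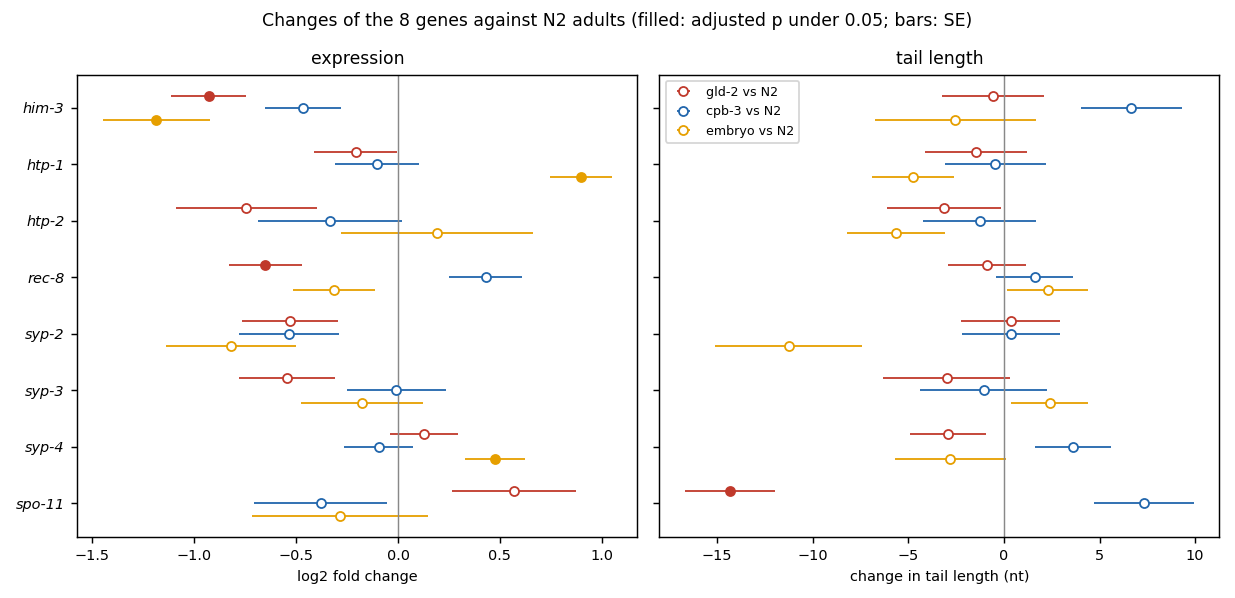
Fitted change against N2 adults of each gene in gld-2 worms, cpb-3 worms and embryos: log2 fold change (left) and tail length in nt (right), with SE bars. Filled points have an adjusted p under 0.05. The gld-2 tail change of spo-11, -14.34 nt, is the one filled point on the right, and spo-11 in embryos has too few tailed reads for the test.

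Set directly against each other, the 2 mutants differed in rec-8 and spo-11. The rec-8 counts were lower in gld-2 than in cpb-3 worms by a log2 change of -1.08 ± 0.18 (edgeR adjusted p = 0.000316), and those of spo-11 were higher by 0.95 ± 0.32 (adjusted p = 0.0312). Together 2 of 8 members were called, against 36.4% of 10357 rows. The rec-8 call held with any library left out, while that of spo-11 was lost without gld-2 replicate 1, cpb-3 replicate 2 or cpb-3 replicate 3 (adjusted p up to 0.163, change down to 0.65).

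The spo-11 tails were shorter in gld-2 than in cpb-3 worms by -21.66 ± 2.61 nt (limma adjusted p = 0.0022), and this call held without each library that could be left out and with lengths centred per library (-16.9 nt, adjusted p = 0.019). With 1 of the first 2 cpb-3 libraries left out, spo-11 had a single cpb-3 tail and was not tested. The tails of syp-4 were 35, 36 and 36.8 nt in gld-2 and 44.1, 39.7 and 43.4 nt in cpb-3. The groups did not overlap, as in 33.3% of all rows tested. The difference was -6.50 ± 1.98 nt with an adjusted p of 0.0498 in limma, which rose to at most 0.157 with a library left out. It was lost without any of the 3 gld-2 libraries and without cpb-3 replicate 1 or 3. These 2 calls among 8 members compare with 17.4% of 7211 rows, or 1252, which fell to 472 when gld-2 replicate 1 was left out and to 545 when gld-2 replicate 2 was. In the share of tailed reads 0 of 8 members and 2.85% of 7602 rows were called (limma; 0 members unadjusted). Those 217 row calls became 1045 without cpb-3 replicate 1 and at most 2 without any other library of the 2 groups.

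Under RNAi in gld-2 worms, no member passed the expression test. The test did not call large differences either: the reads of ccr-4 itself, 846 to 1010 CPM in its own RNAi libraries against 5.21 to 25.5 in control, had an adjusted p of 0.713. Calls of 0 therefore do not show that levels were alike. edgeR called 0 of 8 members in each of the 5 comparisons with control RNAi, and 0.0% of 9908 rows. DESeq2 called 0 members as well. At an unadjusted p under 0.05 edgeR counted 2 members in the libraries labelled ccf-1 RNAi and 0 in the others. The 2 were him-3, with 15.2 and 21.4 CPM against 6.59 and 9.12 in control (log2 change 1.25 ± 0.34, adjusted p = 0.68), and rec-8, with 17 and 23.9 CPM against 14 and 9.58 (0.76 ± 0.31, adjusted p = 0.732). These 5 comparisons share the same 2 control libraries. The him-3 values of ccf-1 RNAi lay above those of the other 10 RNAi libraries, which ran from 4.8 to 11.3 CPM. Against control alone, 39.2% of all rows tested had no overlap, and against all 10 libraries that share was not computed. Over the 8 members the median log2 change in ccf-1 RNAi was 0.64, and over all rows 0.01. Summed oocyte markers were at 3730 to 4790 CPM in these libraries and 2870 to 3040 in control, and mitotic germ cell markers at 196 to 210 and 122 to 143 CPM. Their part in the members' values was not tested.

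The same libraries had longer tails. Of the 7 members with enough tailed reads (all but htp-2), 1 was called longer in ccf-1 RNAi, against 17.9% of 5830 rows (1034 longer and 9 shorter). That member was rec-8 (10.14 ± 2.60 nt, limma adjusted p = 0.0281). It had 39.4 and 40.3 nt against 28 and 31.5 nt in control, without overlap, as in 63.9% of all rows tested. The other 6 were also longer in the fit, by 4 nt for syp-2 to 11.3 nt for him-3, with adjusted p from 0.0645 for htp-1 to 0.644. The members' median was 7.11 nt and that of all rows 5.47 nt. The rec-8 call was lost without control RNAi replicate 2 or either ccf-1 library (adjusted p from 0.0642 to 0.132). Over all rows the 1043 calls became 0 without control RNAi replicate 2, 8 without ccf-1 RNAi replicate 2 and 676 without ccf-1 RNAi replicate 1. With lengths centred per library the rec-8 change became 4.65 nt (adjusted p = 0.301), and all rows had 0 calls.

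**Figure D4:**
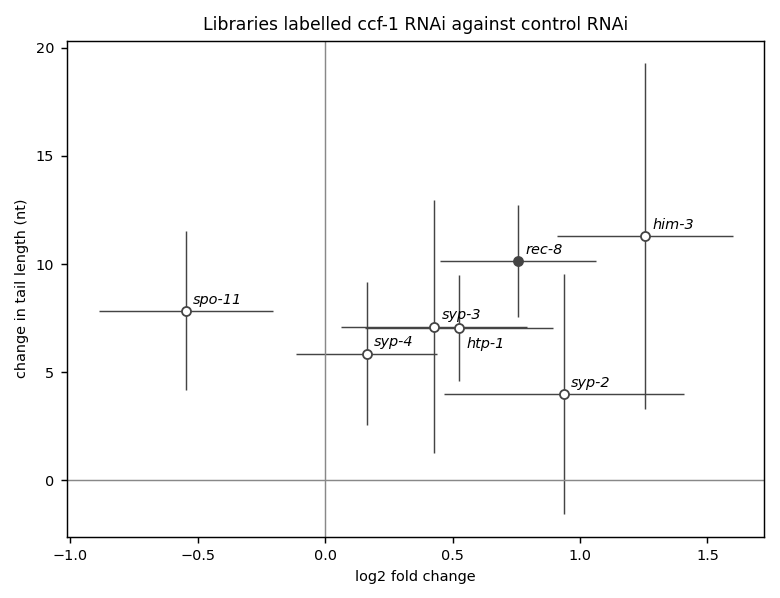
Change in tail length (nt, vertical) against log2 fold change in counts (horizontal) for 7 members in the libraries labelled ccf-1 RNAi against control RNAi, with SE bars. The filled point, rec-8, is the one tail call, and spo-11 is the gene with a negative log2 change (-0.55).

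In the other RNAi groups 0 of 7 members had a called tail change. The share of all rows called was 0.0% of 5945 for parn-1, 0.0% of 5909 for caf-1, 0.0169% of 5910 for panl-2 and 0.0% of 5936 for ccr-4 (limma; 0, 0, 2 and 0 members unadjusted, and 207, 252, 664 and 378 rows). The 2 members in panl-2 RNAi were him-3 and syp-3. The him-3 tails were 62.2 and 79.2 nt against 44.7 and 27.8 nt in control, a difference of 34.5 ± 8.05 nt (adjusted p = 0.186) and the most positive of the 5910 rows. They rest on 103 and 16 tailed reads in panl-2 RNAi and 43 and 17 in control. The syp-3 tails were 45.7 and 53.4 nt against 32 and 38.1 nt (14.5 ± 5.88 nt, adjusted p = 0.38).

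The spo-11 tails stayed in a low range in every gld-2 group. They ran from 22.9 to 37.2 nt over the 12 RNAi libraries, with a median of 30.8 nt. All lay below the lowest value of N2 adults, 39.05 nt in run 1. The N2 embryos of run 2 had 50.8 and 25.6 nt, the second inside that range. How many of all rows lie apart in this way was not computed. For him-3 the RNAi libraries ran from 27.8 to 79.2 nt around a median of 47.5 nt, a range that holds all the N2 values. Run and food differ between these RNAi libraries and the N2 adults, so this is a description.

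The share of tailed reads was called for 0 of the 7 members tested in each RNAi comparison. Over all rows the share called was 0.0% of 6761 for parn-1, 0.0% of 6708 for caf-1, 0.0% of 6707 for panl-2, 0.0% of 6657 for ccf-1 and 0.0% of 6747 for ccr-4 (limma). At an unadjusted p under 0.05 there were 2 members in panl-2 RNAi, spo-11 and syp-3, and 0 in the others, beside 59, 61, 1673, 69 and 62 rows. For spo-11 the shares were 87.8% and 74.3% in panl-2 RNAi (95% Wilson intervals 81.5% to 92.1% and 57.9% to 85.8%) against 45.8% and 29.4% in control (36.2% to 55.8% and 16.8% to 46.2%). Outside ribosomal RNA, panl-2 RNAi replicate 1 had 84.2% tailed reads over all genes and replicate 2 had 51.6%. The spo-11 change in the log2 ratio of tailed to untailed reads was 2.87 with both libraries and 3.54 without replicate 2. With 1 library left that group has no spread of its own, so no call is drawn from that fit.

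Embryos at the 1- and 2-cell stage held more htp-1 and syp-4 mRNA and less him-3 mRNA than N2 adults. Stage and sequencing run cannot be told apart in this comparison. The htp-1 counts were 69.7 and 67 CPM against 36, 39 and 34.9 in adults (log2 change 0.90 ± 0.15, edgeR adjusted p = 0.00254). Its groups did not overlap, as in 60.2% of all rows tested. With each library left out the change stayed between 0.84 and 0.96. The call held without any 1 N2 library and with htp-2 reads added (0.78, adjusted p = 0.00627). The syp-4 counts were 72.4 and 72.7 CPM against 56.4, 48.7 and 51.2 (0.48 ± 0.15, adjusted p = 0.0339), and this call was lost without N2 replicate 2 or N2 replicate 3, with no filter on low counts and with a replicate block (adjusted p up to 0.211). The him-3 counts were 18.8 and 11.2 CPM against 29.1, 36.6 and 36.5 (-1.19 ± 0.26, adjusted p = 0.00871), lost without N2 replicate 2 (-0.88, adjusted p = 0.0509). Together 3 of 8 members were called, against 34.4% of 9343 rows (1506 higher and 1709 lower). The 3215 row calls fell to 1910, 1548 and 1541 without N2 replicates 1, 2 and 3.

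The 2 embryo libraries differed most in htp-2, with 17.3 and 4.53 CPM from 70 and 19 reads, against 7.88 to 11.1 in N2. Its log2 change was 0.19 ± 0.47 (edgeR adjusted p = 0.79), 0.84 without embryo replicate 2 and -1.10 without embryo replicate 1. With 1 embryo library left the spread comes from N2 alone, so no call is drawn from these 2 changes. The syp-2 counts were 6.92 and 5.72 CPM (-0.82 ± 0.32, adjusted p = 0.0743). Without embryo replicate 1 the syp-2 change was -0.99.

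The gld-2 worms sequenced in both runs, untreated in run 1 and on control RNAi in run 2, can be set side by side. Here him-3 had 17.7 ± 1.44 CPM in run 1 (SD, n = 3) and 7.85 ± 1.79 on control RNAi in run 2 (SD, n = 2), and rec-8 had 17.2 ± 0.474 and 11.8 ± 3.13. The values of htp-1 were 31.4 ± 6.99 and 29.5 ± 0.905, and those of syp-4 56.3 ± 9.42 and 46.1 ± 0.0354. Food differs too between these groups, and they share no fit. In both run 2 libraries him-3 was at lower values, and the run 2 means of htp-1 and syp-4 were not above those of run 1. The mean of htp-2 went from 5.375 ± 2.68 to 4.91 ± 2.09 CPM and that of syp-2 from 7.64 ± 1.13 to 5.39 ± 2.47. Higher means in run 2 were those of syp-3, from 8.11 ± 2.53 to 9.585 ± 3.85, and spo-11, from 13.15 ± 4.12 to 14.3 ± 1.65. The part of the run in the embryo changes was not tested. Embryo libraries held summed oocyte markers at 7440 to 9010 CPM against 5380 to 5450 in N2, with 5 of 12 called higher and 3 lower. Markers of mitotic germ cells were at 828 to 1010 against 386 to 453 CPM (2 of 5 higher). Those of all germ cells were at 1790 against 1480 to 1600 CPM (2 higher and 3 lower of 10). Muscle markers were at 768 to 835 against 1790 to 2010 CPM (4 of 4 lower). Intestine markers were at 2310 to 6590 CPM in embryos, with elt-2 at 0, against 3280 to 3320 in N2 (1 higher and 2 lower of 5). The part of these marker differences in the members' values was not tested.

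Tail lengths in embryos were called for 0 of 7 members and 0.0% of 5447 rows (limma; 1 member and 1364 rows unadjusted). Without embryo replicate 1 or 2 the spread comes from N2 alone, so the difference between the 2 embryo libraries leaves the test. No count of calls is drawn from those fits. The member with an unadjusted p under 0.05 was syp-2, with 13.3 and 25.9 nt against 29.7, 29.6 and 33.3 nt in N2 (-11.25 ± 3.84 nt, adjusted p = 0.153), from 23 and 21 tailed reads in embryos. For spo-11, which the test did not take, the 2 embryo libraries had 50.8 and 25.6 nt from 23 and 16 tailed reads. Its embryo values lay above and below all 3 N2 values.

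The share of tailed reads was lower in embryos for 5 of 8 members, against 38.7% of 6061 rows (48 higher and 2295 lower). The 2343 row calls fell to 1183 without N2 replicate 2 and 1071 without N2 replicate 3. For syp-4 it was 53.4 ± 7% in embryos (SD, n = 2) and 91.1 ± 0.707% in N2 (SD, n = 3; limma adjusted p = 0.00416), and for htp-1 76.9 ± 3.97% and 97.3 ± 0.609% (adjusted p = 0.00556). The others called were htp-2 (adjusted p = 0.0191), spo-11 (adjusted p = 0.0251) and him-3 (adjusted p = 0.047), whereas rec-8 had 94.9 ± 7.14% against 96.1 ± 0.808% (adjusted p = 0.692). The calls of syp-4 and htp-1 held without any 1 N2 library. That of htp-2 was lost without N2 replicate 2, that of spo-11 without N2 replicate 1 or 3, and that of him-3 without any 1 N2 library or embryo replicate 2. With log ratios centred per library, syp-4 alone was called (adjusted p = 0.0406).

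**Figure D5:**
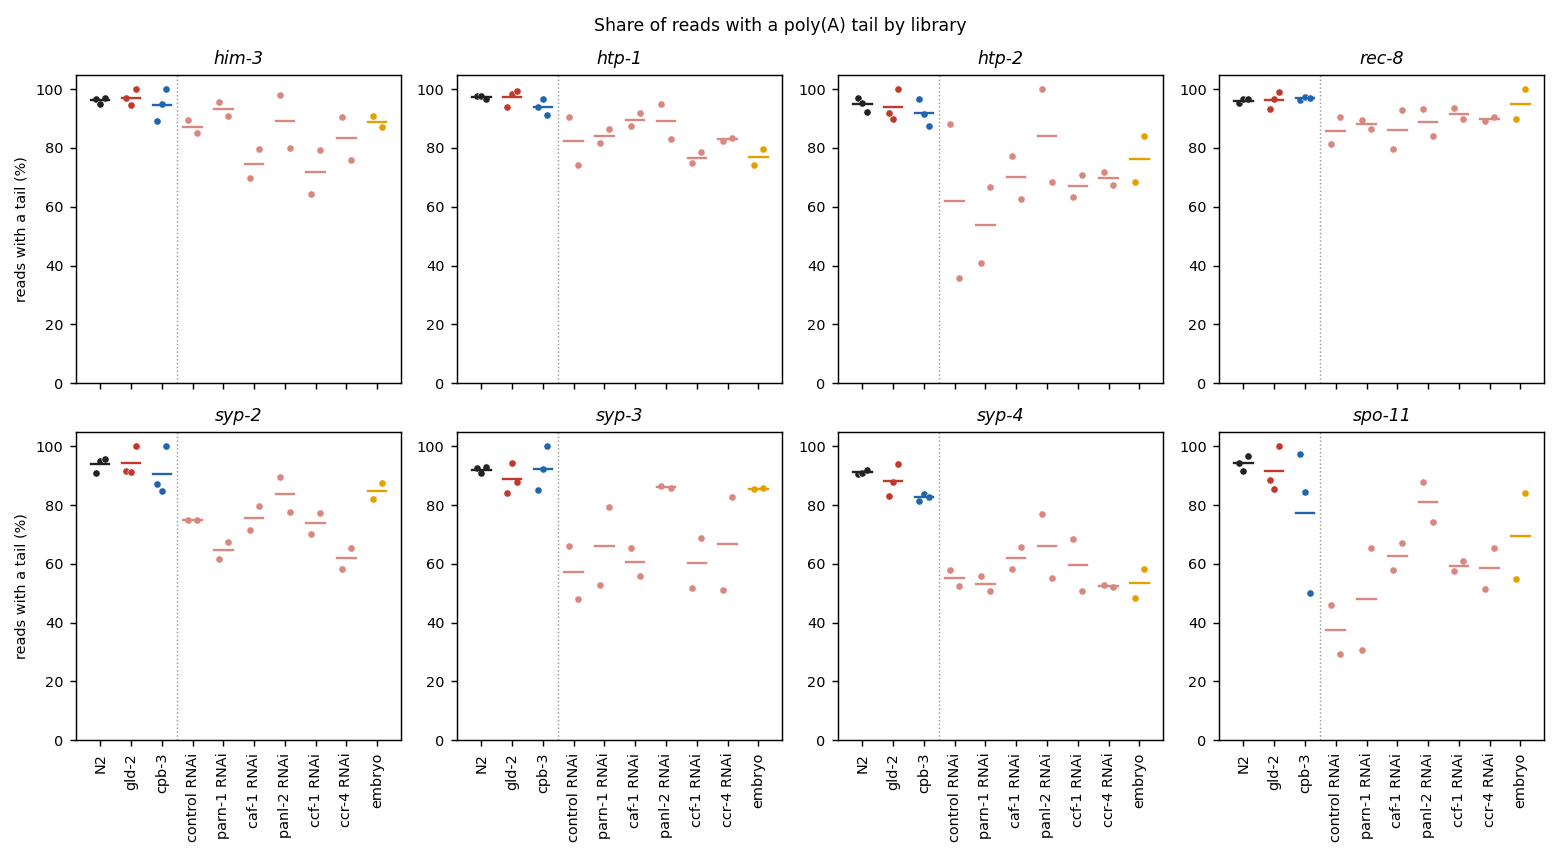
Percentage of reads with a poly(A) tail (vertical axes, from 0) for the 8 genes by library and group, with group means as lines and the dotted line between run 1 and run 2. Members run from 50% to 100% with a median of 94.1% in run 1, and from 29.4% to 100% with a median of 75.4% in run 2.

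Tailed shares of gld-2 adults also had lower means in run 2. From run 1 to control RNAi in run 2, the tailed share of syp-4 went from 88.2 ± 5.5% to 55.3 ± 3.93%, that of htp-1 from 97.3 ± 2.87% to 82.4 ± 11.5% and that of spo-11 from 91.4 ± 7.58% to 37.6 ± 11.6%. The share of rec-8 went from 96.3 ± 2.89% to 85.9 ± 6.44%. For the embryo shares, stage and run again cannot be told apart.

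Among the near-identical copies, htp-2 had the longer tail in 17 of 23 libraries, with 5 to 124 tailed htp-2 reads per library. Libraries of a group are not separate support for this count, and the difference was not tested. The ratio of htp-1 to htp-2 CPM ran from 3 in gld-2 replicate 1 to 14.8 in embryo replicate 2. Their summed level was 43.9, 50.1 and 44.5 CPM in N2, 32.2, 43.5 and 34.5 in gld-2, and 86.9 and 71.5 in embryos. The embryo sums lay above every adult sum, the highest of which was 60.9 CPM in ccf-1 RNAi replicate 2.

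The wider meiotic machinery was read from 3 lists of 55 genes in all, 42 of them with a row of their own: cohesin and axis partners, pairing factors and meiotic kinases, and genes of break formation and recombination. In gld-2 against N2, 3 of 42 rose and 3 fell in expression, with a median log2 change of -0.02, while 28.5% of all rows were called. The 2 with the smallest adjusted p among those that rose were rad-50, a subunit of the break-processing MRN complex (74.4 ± 1.97 CPM against 35.4 ± 7.04; log2 change 1.09 ± 0.18, edgeR adjusted p = 0.00019), and rmh-1, a scaffold of the RTR complex (10.5 ± 2.13 against 5.25 ± 0.926; 1.02 ± 0.26, adjusted p = 0.00683). Among those that fell were prom-1, an F-box protein of meiotic entry and pairing (19.9 ± 4.6 against 45.4 ± 3.69; -1.19 ± 0.23, adjusted p = 0.000898), and lab-1, which protects cohesion on the long arm (6.82 ± 1.52 against 14.9 ± 3.31; -1.09 ± 0.24, adjusted p = 0.00226).

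Of the same 42 genes, 1 had longer and 2 had shorter tails in gld-2 worms, with a median of -2.67 nt, beside 8.86% of all rows called. The longer tail was that of mjl-1, which joins chromosomes to the nuclear envelope (34.7 ± 4.12 nt against 24.6 ± 1.65; limma adjusted p = 0.0343). The shorter tails were those of brc-1, the BRCA1 orthologue (27.8 ± 0.288 against 35.5 ± 2.64 nt; adjusted p = 0.0249), and him-17, a chromatin factor needed for breaks (33.9 ± 0.783 against 41.2 ± 0.661 nt; adjusted p = 0.0312). In cpb-3 worms 1 of 42 fell in expression, xnd-1, which acts in crossover placement (42.8 ± 14.2 CPM against 75 ± 6.61; adjusted p = 0.0277), and 0 rose, beside 8.78% of all rows called, and 0 passed the tail test, which called 0.0% of all rows. Between the mutants, 6 of 42 had more reads in gld-2 than in cpb-3 worms and 4 had fewer, and 7 had shorter and 0 longer tails. The shares of all rows called were 36.4% and 17.4% here. In the RNAi comparisons 0 were called in expression, where edgeR called 0.0% of all rows. In ccf-1 RNAi 5 of 35 had longer tails (limma), with a median of 7.57 nt, beside 17.9% of all rows.

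In embryos 2 of the 42 genes rose and 4 fell in expression, while 34.4% of all rows were called. The mRNAs of him-18 (34.6 ± 4.83 CPM against 13.7 ± 1.9; edgeR adjusted p = 0.00221), a scaffold for structure-specific nucleases, and zhp-3 (22.5 ± 3.49 against 8.07 ± 1.5; adjusted p = 0.00368), a RING-domain crossover factor, were higher. Those of dsb-3, a break-promoting factor (22.9 ± 1.1 against 46 ± 4.07; adjusted p = 0.00345), and him-17 (47 ± 4.11 against 76.7 ± 5.02; adjusted p = 0.00885) were lower. The tailed share was higher for 1 of 38 and lower for 7, beside 38.7% of all rows called. The higher share was that of the cohesin subunit scc-3, with 100 ± 0% against 97.4 ± 1.03% (limma adjusted p = 0.0152). All its embryo reads carried a tail, so its log2 ratio depends on the small count added before the ratio was taken. Among the lower, the smallest adjusted p were those of him-6, the BLM helicase orthologue (46.2 ± 8.8% against 91.9 ± 3.05%; limma adjusted p = 0.00413), and him-8, the X chromosome pairing protein (35.8 ± 2.15% against 84.9 ± 9.02%; adjusted p = 0.00787).

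Over the 9 adult libraries of run 1, the 5 genes whose log2 CPM followed the mean of the 8 members' standardised profiles most closely were nep-1 (Pearson r = 0.984), mett-10 (0.978), dgk-1 (0.961), ttyh-1 (0.961) and mboa-7 (0.96), out of 4797 candidates. The 9 points are 3 libraries of each of 3 strains, so libraries of a strain share their difference from the others.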

How the data were processed

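For each gene and library the authors deposited a raw count of reads, a count of tailed reads and a mean tail length in nt, which the file headers give no further method for (treated as a score). Per the submitters' processing notes, Bowtie, Bowtie2 2.2.4 and the build ce10 were used, while the counting tool and tail caller are not stated there. The authors' counts were tested with edgeR 4.0.16 in R 4.3.3 (quasi-likelihood, robust, TMM, filterByExpr). CPM use TMM-scaled sizes over all 23 libraries. For tail lengths, limma 3.58.1 (trend, robust) was used; lengths from under 5 tailed reads were missing, and rows needed a mean of 20 tailed reads and 2 values per group. Tailed shares were tested with limma on log2 ratios of tailed to untailed reads (0.5 added; mean of 20 counts per group). Benjamini-Hochberg adjustment ran over all rows, and an adjusted p under 0.05 was called. The run 1, RNAi and N2 with embryo libraries had 1 edgeR fit each. Fits of limma used the same sets of libraries, with rows filtered anew for each comparison. The main edgeR and limma tests were tried on simulated data for gld-2 against N2, ccf-1 RNAi against control RNAi and embryos against N2. Set changes there were larger than most of the members' changes, and no result here rests on that trial. DESeq2 1.42.0, other scalings, filters and left-out libraries were alternatives. Wider lists name at most 2 genes per direction and measure, by adjusted p. Members and lists were chosen with earlier results of these data known.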

Additional observations from a re-analysis of the deposited data

How the results depend on the processing

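In the 7 comparisons with a called member, 47 of 72 recomputed counts of called members stayed within 1.5 times their first value and 25 did not. In the other 20, 181 of 183 stayed at 0, which says nothing about stability where no row was called. With lengths centred per library, tail calls became 0 in gld-2 against N2, 1 in gld-2 against cpb-3 and 0 in ccf-1 RNAi, and tailed-share calls in embryos with centred log ratios became 1. The lower minimum of tailed reads gave 1 tail call in gld-2 against cpb-3, and a minimum of 50 counts gave 3 share calls among the 4 members it left in embryos. With 1 library left out, called members ran from 1 to 3 (expression) and 0 to 1 (tails) in gld-2 against N2, and from 1 to 2 and 0 to 2 in gld-2 against cpb-3. They ran from 0 to 1 for tails in ccf-1 RNAi, from 0 to 4 for shares in panl-2 RNAi, and in embryos from 1 to 5 for expression, 0 to 3 for tails and 3 to 4 for shares. Of 1882 recomputed member values 185 changed sign, 184 of them without a call under either setting. The exception was htp-2 expression in embryos, which became -1.10 without embryo replicate 1 and 0.84 without embryo replicate 2. The cause was not tested. Where a group kept 1 library, that library was assumed to vary like the others.

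In run 1, same-numbered libraries had r of expression deviations from -0.17 to 0.18 (9 pairs), and 4 of 9 libraries correlated best with their own number. Among RNAi groups r was positive in 14 of 15 pairs of groups and over 0.1 in 11 (-0.11 to 0.32), so libraries of a number tended to vary together there. With 2 numbers, and no label that ties them to a shared batch, they were still not taken as pairs. With a replicate block, called members became 1 for tails in gld-2 against cpb-3, 2 for tails in ccf-1 RNAi, and 2 for expression and 2 for tailed shares in embryos. Over all rows the block gave 310 tail calls in gld-2 against N2 in place of 670, and 1700 expression and 1140 share calls in embryos in place of 3215 and 2343, and 0 share calls in gld-2 against cpb-3 in place of 217.

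Other counts over all rows moved too. Centring gave 395 tail calls in gld-2 against N2 (73 longer, 322 shorter) in place of 670, 818 (332 longer, 486 shorter) in place of 1252 in gld-2 against cpb-3, 0 in place of 1043 in ccf-1 RNAi, and 638 share calls (212 higher, 426 lower) in place of 2343 in embryos. In cpb-3 against N2, share calls were 824 with a pseudocount of 2 and 472 with a minimum of 50 counts, in place of 0, and in gld-2 against cpb-3 they were 792, 616 and, centred, 0 in place of 217. Expression calls in panl-2 RNAi were 171 by DESeq2 and 320 with no filter on low counts, in place of 0, and those with no filter were 19 in ccf-1, 8 in ccr-4 and 2 in parn-1 RNAi. The lower minimum gave 662 tail calls in ccf-1 RNAi. The depth of 8 to 954 reads a member limits the precision of its values.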
